A study of Mus musculus with 15 samples.

Results

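Complement is a set of plasma proteins, cell-surface receptors and regulators, and 9 of its genes are described here: the C1q chains C1qa, C1qb and C1qc, the components C3, Cfb and Cfp, the inhibitor Serping1, and the anaphylatoxin receptors C3ar1 and C5ar1. They were taken by their exact gene name on noncontrol spots, which gave 13 of the 56605 probes on the array. Of the 9 genes, 8 were above the background filter and were among the 19506 genes tested, while Serping1 was not. Expression was measured on 15 one-colour Agilent arrays of RAW264.7 cells, a mouse macrophage-like line, in 5 groups of 3 replicates. The groups were dexamethasone (DEX) and fluticasone furoate (FF), both synthetic glucocorticoids, the compounds known here only as VSG158 and VSG159, and vehicle (labels EtOH and DMSO). Each steroid was present at 100 nM from 1 h before lipopolysaccharide (LPS, from the outer membrane of Gram-negative bacteria, a macrophage activator) was added at 1 ug per ml for 16 h. The protocol with LPS is attached to all samples, vehicle included, while the labels of the vehicle arrays mention solvent alone, so LPS in the vehicle cultures is assumed here. The labels do not tie a solvent to a compound, and the series text speaks of duplicates where the labels give 3 replicates. Nothing says that replicates came from separate cultures, so p-values measure the spread between these samples, which may be technical, and the number of arrays limits the precision.

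Complement acts by a cascade of cleavages that meet at C3, whose fragments mark targets for uptake and call in leukocytes. C1q, built of the A, B and C chains, starts the classical pathway on antibody or damaged cells. Factor B (Cfb) and properdin (Cfp) form and stabilise the alternative pathway convertase, and C1 inhibitor (Serping1) blocks the proteases that C1q activates. The fragments C3a and C5a signal through C3ar1 and C5ar1 on myeloid cells. Most plasma complement comes from the liver, while macrophages are a known local source of C1q, C3, factor B and properdin.

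The arrays lay on 2 slides: vehicle, VSG158 and VSG159 replicates 1 and 2 on the first, and VSG159 replicate 3, FF and DEX on the second, each group at neighbouring positions. Neither DEX nor FF has a slide in common with vehicle. The share of noncontrol spots well above background was 39.6% to 50.4%. Of 10 macrophage markers, 9 were well above background on all 15 arrays and Mertk on 13. Of 5 hepatocyte markers none was on all arrays, and Alb, Apoa1 and Ttr were on 0. None of 5 epithelial markers was on all arrays, and among the other lists Dcn of 5 fibroblast markers, Cd3e and Cd4 of 6 lymphocyte markers and Elane of 6 neutrophil and mast cell markers were. The summed level of the macrophage markers, relative to each array's 75th percentile, was 1059 to 1220 with DEX, 1095 to 1147 with FF, 1042 to 1138 with VSG158, 1133 to 1210 with VSG159 and 1131 to 1253 with vehicle. That sum weighs bright markers such as Lyz2 (log2 values 7.99 to 8.42) more than dim ones such as Mertk (-6.24 to -0.63). Of the 10 markers 4 were called higher and 2 lower with DEX, 3 and 3 with FF, 4 and 3 with VSG158 and 3 and 2 with VSG159. Of all genes tested 46.3%, 42.2%, 44.2% and 44.1% were called. As a check of the labels, the glucocorticoid receptor target Fkbp5 rose by 3.37 log2 units (VSG159) to 3.60 (VSG158). The summed level of the lymphocyte markers was 50 to 101 for DEX, 28.2 to 49.0 for FF, 34.6 to 117 for VSG158 and 28.0 to 112 for VSG159, against 26.6 to 44.3 with vehicle. That sum follows mainly Cd4 (log2 values 4.65 to 6.81, where Cd3e had -0.59 to 1.98). Of the 3 tested lymphocyte markers 0 were called higher with any steroid, and 1 was called lower with each of DEX and VSG159. The neutrophil and mast cell markers summed to 58.9 to 112 for DEX, 34.0 to 45.1 for FF, 30.7 to 109 for VSG158 and 27.5 to 105 for VSG159, against 32.4 to 66.5 with vehicle. That sum follows mainly Elane (log2 values 4.78 to 6.80). Of the 2 tested markers of that list 0 were called higher with any steroid, and 1 was called lower with each of FF, VSG158 and VSG159. The fibroblast markers summed to 0.343 to 0.476 for DEX, 0.437 to 0.658 for FF, 0.452 to 0.773 for VSG158 and 0.489 to 0.548 for VSG159, against 0.311 to 0.373 with vehicle. The sums with FF, VSG158 and VSG159 lay clear of vehicle, in comparisons where 57.3%, 52.3% and 50.8% of all genes tested did not overlap. Of the 2 tested fibroblast markers 1 was called higher with each steroid and 1 lower with DEX. Of all genes tested 23.2%, 20.9%, 19.7% and 19.1% were called higher with DEX, FF, VSG158 and VSG159. Only Dcn of that list was well above background on all arrays. The part of these lists in the results was not tested.

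Values are log2 processed signals minus the 75th percentile of the array, so a value of 0 is the level that 75% of noncontrol spots do not exceed. Levels are compared between arrays for 1 probe, never between probes. In coordinates of the mouse build mm9, which the array files use, the C1q genes were read by probes on chromosome 4 at 136452409 to 136452468 (C1qa), 136436578 to 136436637 (C1qb) and 136445766 to 136445825 (C1qc). The C3 probes lie at 57343416 to 57343475 and 57343678 to 57343737 on chromosome 17, and those of Cfb at 34993502 to 34993858 and 34994617 to 34994676 on the same chromosome. Cfp was read at 20502742 to 20502801 and 20504475 to 20504676 on chromosome X, C3ar1 at 122798222 to 122798281 on chromosome 6, C5ar1 at 16832094 to 16832135 on chromosome 7 and Serping1 at 84605663 to 84605722 on chromosome 2. The spans of the first Cfb probe (357 bases) and the second Cfp probe (202 bases) exceed the 60 bases of a probe, and that of the C5ar1 probe (42 bases) falls short of it. An mm9 gene annotation was not used here, so exons and UTRs are not assigned. Sequences are shown for the C1qb probe, the second C3 probe and both Cfb probes, as examples of what read a C1q chain and the convertase components. The main C3 values rest on the first C3 probe, which is not shown.
C1qb, A_51_P351860: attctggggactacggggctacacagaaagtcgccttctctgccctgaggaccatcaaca
C3, A_55_P2038525: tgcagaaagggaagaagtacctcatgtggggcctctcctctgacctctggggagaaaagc
Cfb, A_51_P413866: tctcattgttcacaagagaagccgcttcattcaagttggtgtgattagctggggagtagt
Cfb, A_66_P138911: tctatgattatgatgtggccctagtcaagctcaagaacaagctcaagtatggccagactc

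The RefSeq promoter table (build GRCm38.p6) held 6 of the 9 genes, all on the minus strand, with no entry for C1qa, Cfb and Serping1. The 250 bases before the start are given for C1qb, C1qc, C3 and C3ar1, the genes with an entry whose signal was lower with all 4 steroids. Both strands were searched for the glucocorticoid response element, the NF-kB motif, the interferon-stimulated element, the STAT motif TTCNNNGAA, the C/EBP motif TTGCNNAA and the PU.1 motif GAGGAAG, and capitals mark the matches.
C1qb, chr4:136886201-136886450: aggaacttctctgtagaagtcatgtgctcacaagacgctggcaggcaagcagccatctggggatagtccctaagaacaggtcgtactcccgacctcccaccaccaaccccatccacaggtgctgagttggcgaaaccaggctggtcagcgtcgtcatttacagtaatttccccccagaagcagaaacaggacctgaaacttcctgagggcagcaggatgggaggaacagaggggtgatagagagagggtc
C1qc, chr4:136892915-136893164: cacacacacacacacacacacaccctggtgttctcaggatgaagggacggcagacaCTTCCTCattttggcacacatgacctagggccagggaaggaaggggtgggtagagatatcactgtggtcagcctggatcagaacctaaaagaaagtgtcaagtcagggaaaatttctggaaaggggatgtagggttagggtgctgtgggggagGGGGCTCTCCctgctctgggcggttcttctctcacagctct
C3, chr17:57228137-57228386: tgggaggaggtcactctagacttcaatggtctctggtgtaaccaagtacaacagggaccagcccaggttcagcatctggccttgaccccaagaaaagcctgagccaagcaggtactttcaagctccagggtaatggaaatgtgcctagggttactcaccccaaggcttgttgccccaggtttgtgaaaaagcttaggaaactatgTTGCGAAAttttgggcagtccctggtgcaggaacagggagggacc
C3ar1, chr6:122856158-122856407: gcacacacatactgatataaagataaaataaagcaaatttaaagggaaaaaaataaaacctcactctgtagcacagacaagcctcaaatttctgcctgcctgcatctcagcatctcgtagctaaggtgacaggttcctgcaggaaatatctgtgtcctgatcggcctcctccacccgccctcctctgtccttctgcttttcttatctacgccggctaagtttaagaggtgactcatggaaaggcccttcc
The C3 stretch held 1 C/EBP match, at 45 to 38 bases before the start, and C/EBP matches occur in 9.56% of 32851 mouse promoters of this length. The C1qc stretch held an NF-kB match 41 to 32 bases before the start (a motif in 3.90% of promoters) and a PU.1 match on the opposite strand 194 to 188 bases before it (10.6%), which do not overlap. No match lay in the stretches of C1qb or C3ar1, nor in those of Cfp and C5ar1. The other motifs were in 0.00913% (glucocorticoid response element), 2.98% (interferon-stimulated element) and 7.02% (STAT motif) of promoters. These motifs were chosen after the expression values were seen, and a match in letters is not a bound site.

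The same 5 complement genes were lower than vehicle with all 4 steroids: C1qb, C1qc, C3, Cfb and C3ar1. For DEX and FF, which share no slide with vehicle, treatment and slide cannot be fully told apart. C5ar1 was higher with DEX, FF and VSG158 and was not called with VSG159. C1qa and Cfp were not called with any steroid. Under the limma fit of all 15 arrays, with p-values adjusted over all genes tested and called under 0.05, DEX gave 1 gene higher and 5 lower of the 9, FF gave 1 and 5, VSG158 gave 1 and 5, and VSG159 gave 0 and 5. Calls were common in these data: 46.3% of all genes tested were called for DEX, 42.2% for FF, 44.2% for VSG158 and 44.1% for VSG159, with 23.2%, 20.9%, 19.7% and 19.1% of genes tested called higher and 23.1%, 21.4%, 24.5% and 25% called lower. Arrays of steroid and vehicle did not overlap for 60%, 57.3%, 52.3% and 50.8% of genes. The 8 genes tested were well above background on all 15 arrays, so none entered through 1 group alone. Their median change was -0.81 log2 units for DEX, -0.75 for FF, -0.82 for VSG158 and -0.74 for VSG159, where the median of all genes tested was 0.03, -0.05, -0.06 and -0.06. The comparisons with vehicle share the same 3 vehicle arrays. In an F test over the 5 groups, 6 of the 8 genes were called, against 45.1% of all genes, and C1qa (adjusted p = 0.863) and Cfp (adjusted p = 0.290) were not. Scaling to the array median changed the split to 0 higher and 4 lower with FF, 0 and 5 with VSG158 and 0 and 3 with VSG159, and the normexp and deposited-table values gave 0 higher and 5 lower with FF. The shares of all genes called under those settings are not given here. These are bulk samples, in which fewer cells of a type and less RNA per cell cannot be told apart.

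**Figure D1:**
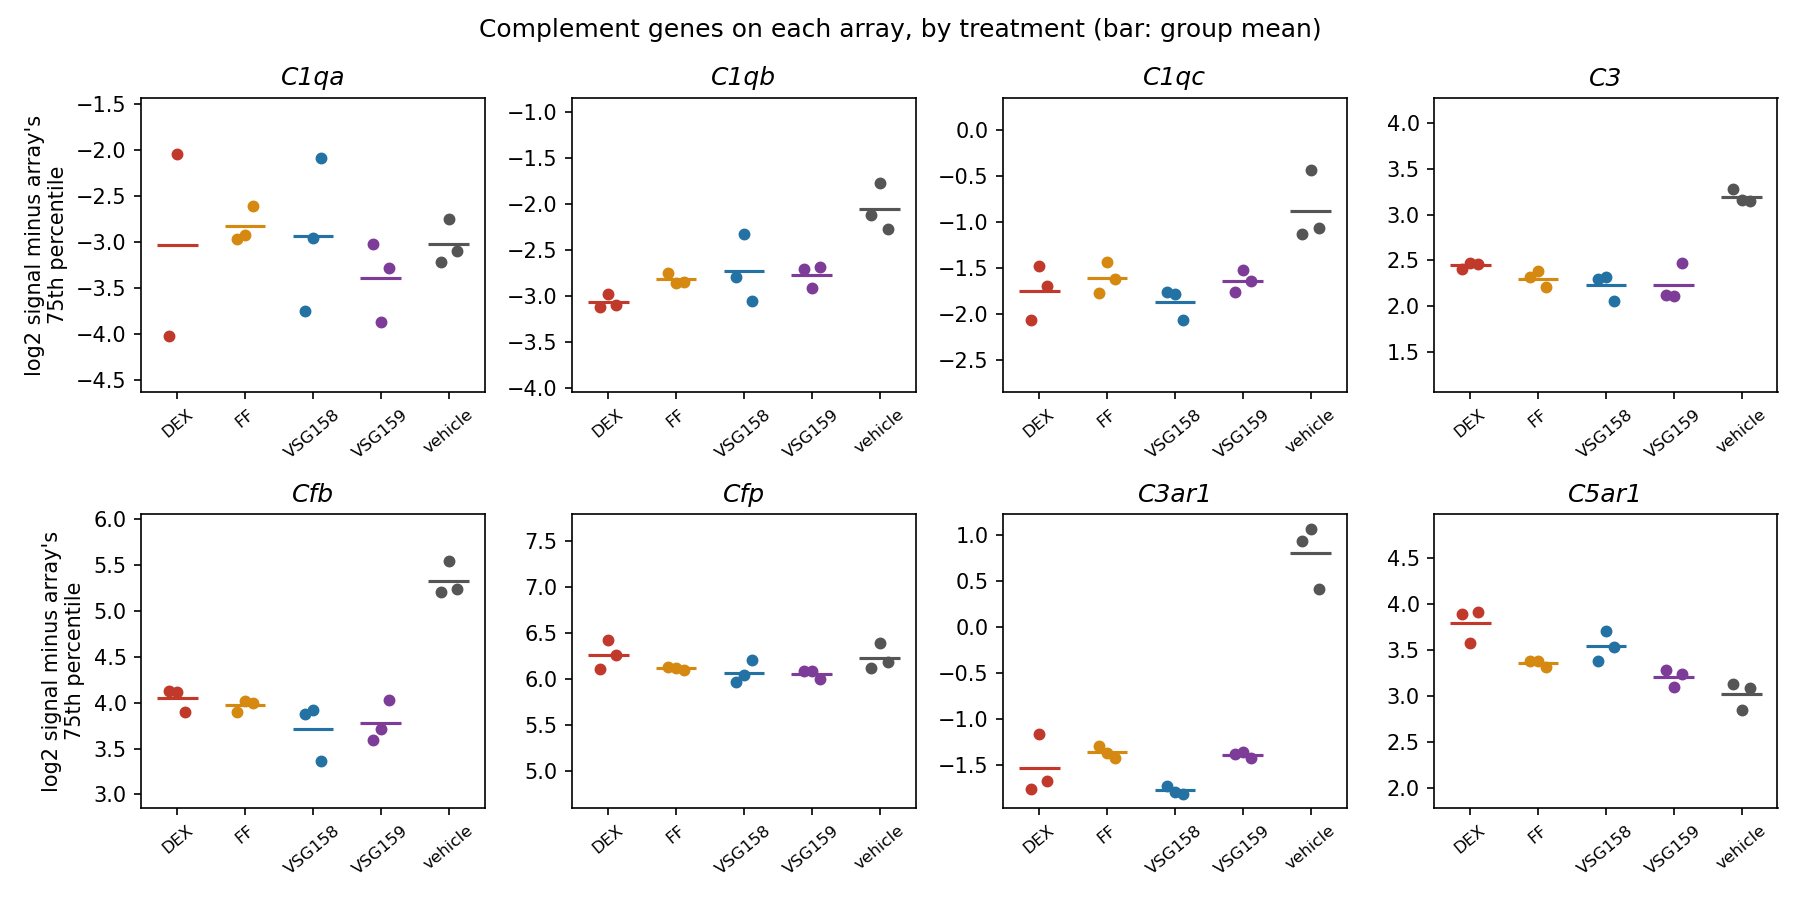
Scaled log2 signal (relative to the 75th percentile of the array) of the 8 tested complement genes, with a point for each array (3 a group, 2 for C1qa with DEX) and a bar at the group mean. All panels span an equal log2 range but at their own positions, since probes are not compared with each other, and the vehicle points of C1qb, C1qc, C3, Cfb and C3ar1 lie above all steroid points.

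C3 and factor B, the core of the alternative pathway convertase, fell with every steroid on both of their probes. C3, the component on which all pathways meet, stood at 2.41, 2.47 and 2.46 on the DEX arrays, 2.32, 2.38 and 2.21 with FF, 2.30, 2.32 and 2.06 with VSG158, and 2.12, 2.11 and 2.47 with VSG159, against 3.27, 3.15 and 3.15 on the vehicle arrays. All steroid arrays lay below all vehicle arrays. The changes were -0.75 for DEX, -0.89 for FF, -0.96 for VSG158 and -0.96 for VSG159 (SE 0.11 each), a signal 1.68-, 1.85-, 1.95- and 1.94-fold lower, with adjusted p = 0.000183, 3.79e-05, 2.02e-05 and 2.04e-05. The second C3 probe gave -0.77, -0.89, -1.03 and -0.88 (SE 0.12) in the fit over all tested probes, all called, where 47.1%, 43%, 45.6% and 44.9% of probes were.

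Cfb, the serine protease of the alternative pathway convertase, stood at 4.12, 4.12 and 3.90 with DEX, 3.89, 4.02 and 4.0 with FF, 3.87, 3.92 and 3.36 with VSG158, and 3.59, 3.71 and 4.02 with VSG159, against 5.20, 5.54 and 5.24 with vehicle. Every steroid array was below every vehicle array, and the lowest of them was VSG158 replicate 3. The changes were -1.28 for DEX, -1.36 for FF, -1.61 for VSG158 and -1.55 for VSG159 (SE 0.16), 2.43- to 3.05-fold lower, and the largest adjusted p was 5.51e-05 (DEX). The second Cfb probe changed by -1.24, -1.39, -1.55 and -1.54 (SE 0.14), all called. Over the 15 arrays C3 and Cfb followed each other with a Pearson r of 0.970, a description of points that share groups and slides.

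Cfp, properdin, the stabiliser of the same convertase, did not pass the test. It stood at 6.11, 6.42 and 6.25 with DEX, 6.13, 6.12 and 6.09 with FF, 5.96, 6.04 and 6.2 with VSG158, and 6.08, 6.09 and 6.00 with VSG159, against 6.12, 6.39 and 6.19 with vehicle. The arrays of the groups overlapped except for VSG159, whose highest array lay just under the lowest vehicle array. The differences were 0.03 with DEX (95% confidence interval -0.19 to 0.25), -0.12 with FF (-0.34 to 0.11), -0.16 with VSG158 (-0.39 to 0.06) and -0.18 with VSG159 (-0.40 to 0.05), intervals that leave out changes the size of those of Cfb. The second Cfp probe differed by -0.08, -0.08, -0.19 and -0.30 (SE 0.13), with adjusted p = 0.615, 0.686, 0.256 and 0.0721.

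**Figure D2:**
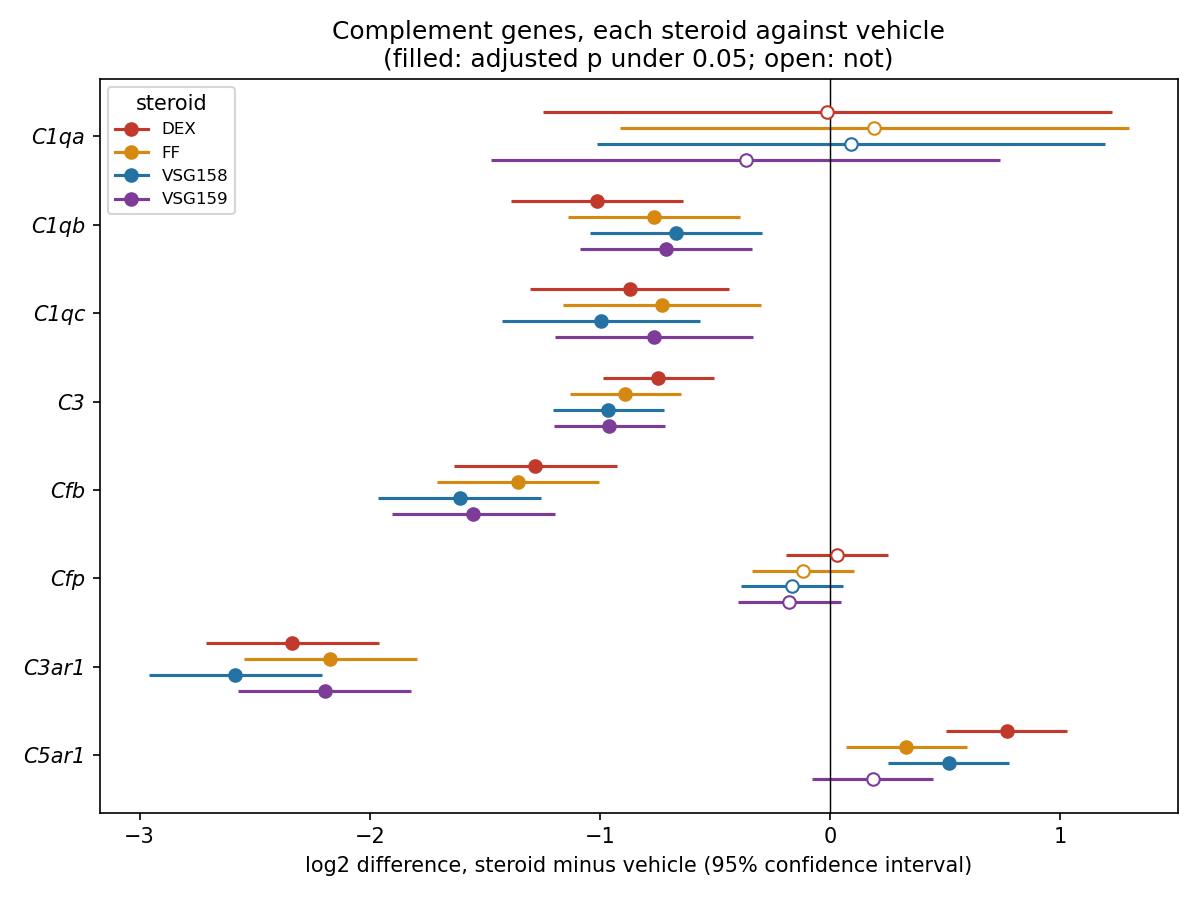
Log2 difference of each steroid minus vehicle (horizontal axis) for the 8 tested complement genes, with 95% confidence intervals from the limma fit, filled points for adjusted p under 0.05 and open points otherwise. C3ar1 lies farthest to the left with all 4 steroids (-2.17 to -2.58), C5ar1 lies to the right of 0, and the C1qa intervals are the widest.

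Of the C1q chains, C1qb and C1qc were called with every steroid and C1qa with none. C1qb stood at -3.12, -2.98 and -3.1 with DEX, -2.75, -2.85 and -2.85 with FF, -2.79, -2.33 and -3.05 with VSG158, and -2.71, -2.91 and -2.68 with VSG159, against -2.12, -1.77 and -2.27 with vehicle. No steroid array reached the lowest vehicle array, and VSG158 replicate 2 came nearest to it. C1qb changed by -1.01 for DEX, -0.77 for FF, -0.67 for VSG158 and -0.71 for VSG159 (SE 0.17), with adjusted p = 0.000491, 0.0031, 0.00688 and 0.00476.

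C1qc stood at -2.06, -1.48 and -1.70 with DEX, -1.77, -1.43 and -1.62 with FF, -1.76, -1.78 and -2.07 with VSG158, and -1.76, -1.52 and -1.64 with VSG159, against -1.13, -0.43 and -1.07 with vehicle. All steroid arrays lay below all vehicle arrays, of which replicate 2 was the highest. C1qc changed by -0.87 for DEX, -0.73 for FF, -1.0 for VSG158 and -0.77 for VSG159 (SE 0.20), with adjusted p = 0.0035, 0.0101, 0.00138 and 0.00745. With slide as a fixed block the C1qc calls with DEX (adjusted p = 0.0811) and FF (adjusted p = 0.144) were lost, and so, under median scaling, were those of C1qc with FF (0.0968) and of C1qb and C1qc with VSG159 (0.0744 and 0.0895). The second C1qc probe was well above background on 0 of 15 arrays and was not tested.

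C1qa scattered more within groups than between them. It stood at -4.03 and -2.04 with DEX, -2.96, -2.92 and -2.60 with FF, -3.75, -2.95 and -2.09 with VSG158, and -3.02, -3.87 and -3.28 with VSG159, against -3.22, -2.75 and -3.1 with vehicle. The spot of DEX replicate 3 was marked as an outlier by the scanner software and left out, so DEX has 2 values, and it would stand at -1.34 if kept. The differences from vehicle were -0.01 with DEX (95% confidence interval -1.25 to 1.22), 0.19 with FF (-0.91 to 1.30), 0.09 with VSG158 (-1.01 to 1.20) and -0.37 with VSG159 (-1.47 to 0.74), and adjusted p was 0.590 to 0.989. These intervals contain the C1qb change of the same steroid, so the C1qa probe does not show that C1qa behaved otherwise than C1qb.

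Serping1, the gene of C1 inhibitor, was well above background on 0 of 15 arrays, and no change is given for it. Its processed signal was 8.72 to 11.7 with DEX, 7.39 to 21.3 with FF, 12.6 to 18.8 with VSG158, 5.75 to 9.59 with VSG159 and 5.81 to 16.6 with vehicle.

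Of the anaphylatoxin receptors, C3ar1 was lower with all 4 steroids, while C5ar1 was called higher with DEX, FF and VSG158 but not with VSG159. C3ar1, the receptor of C3a, stood at -1.76, -1.16 and -1.67 with DEX, -1.30, -1.37 and -1.43 with FF, -1.73, -1.79 and -1.81 with VSG158, and -1.38, -1.36 and -1.42 with VSG159, against 0.94, 1.07 and 0.42 with vehicle. The groups of steroid and vehicle arrays did not overlap. C3ar1 changed by -2.34 for DEX, -2.17 for FF, -2.58 for VSG158 and -2.20 for VSG159 (SE 0.17), a signal 5.05-, 4.50-, 5.99- and 4.58-fold lower, and the largest adjusted p was 9.27e-07. Of the 8 genes tested, it had the largest change with each steroid.

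C5ar1, the receptor of C5a, stood at 3.90, 3.58 and 3.91 with DEX, 3.38, 3.38 and 3.32 with FF, 3.38, 3.71 and 3.53 with VSG158, and 3.29, 3.1 and 3.24 with VSG159, against 3.14, 2.85 and 3.1 with vehicle. The DEX, FF and VSG158 arrays lay above all vehicle arrays, while those of VSG159 overlapped them. C5ar1 rose by 0.77 with DEX (adjusted p = 0.000293), 0.33 with FF (adjusted p = 0.0436) and 0.52 with VSG158 (adjusted p = 0.00416). With VSG159 it differed by 0.18 (95% confidence interval -0.08 to 0.45, adjusted p = 0.242), and the SE was 0.12 throughout. From the highest group mean down, the order was DEX, VSG158, FF, VSG159 and vehicle, and of the neighbours in it only FF and VSG159 had arrays that did not overlap (a difference not called, in a pair where 11.2% of genes did not overlap). The FF call was lost without any 1 of FF 1, 2 or 3, vehicle 2 or 3, VSG158 3, VSG159 1 or DEX 1 (adjusted p 0.0503 to 0.172), with slide as a fixed block (0.330) and under median scaling (0.237), where the VSG158 call was lost too (0.141).

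VSG158 and VSG159 can be set against vehicle on the first slide alone. There the 3 VSG158 arrays gave the same 6 calls, from C1qb (-0.67, adjusted p = 0.0473) to C3ar1 (-2.58, adjusted p = 9.69e-05), and C5ar1 was 0.52 higher (adjusted p = 0.0217). VSG159, with its 2 arrays on that slide, gave the same 5, from C1qc (-0.76, adjusted p = 0.0367) and C1qb (-0.76, adjusted p = 0.0428) to C3ar1 (-2.18, adjusted p = 0.000323). Those 2 arrays and VSG158 replicate 3 had 541, 559 and 889 non-uniform spots, against 26 to 218 on the other arrays. Their 75th percentiles were 1170, 1220 and 1223 in processed signal, against 695 to 940. What part this has in the VSG159 and VSG158 values was not tested. DEX and FF cannot be compared with vehicle on 1 slide. With slide and the position on it both in the fit, 0 of the members were called with DEX or FF, in a fit that called 38 and 1062 genes in all, against 5810 with VSG158 and 2782 with VSG159. That fit also lost the calls of C1qb (adjusted p = 0.254) and C5ar1 (0.0842) with VSG158. With VSG159 it lost those of C1qb (0.655) and C1qc (0.266).

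Between the steroids, at the matched dose of 100 nM and the same times, 6 pairs were compared and 1 of 48 gene-by-pair tests was called. The dose was matched but the slide was not: all VSG158 arrays lay on the first slide and all DEX and FF arrays on the second. Of VSG159 only replicate 3 lay on the slide of DEX and FF. C5ar1 was 0.58 log2 units lower with VSG159 than with DEX (SE 0.12, adjusted p = 0.0211), all VSG159 arrays lying below all DEX arrays. In that pair 5.55% of genes were called, 4.11% lower, and 26.8% had arrays that did not overlap. That call was lost without VSG159 replicate 2 (adjusted p = 0.0941), DEX replicate 1 (0.0824) or DEX replicate 3 (0.0981) and with slide as a fixed block (0.0939). With FF it differed from DEX by -0.44 (95% confidence interval -0.70 to -0.17, adjusted p = 0.066), without overlap of the arrays, where 4.14% of genes were called and 38.4% did not overlap, and by the same amount on the second slide alone (adjusted p = 0.0792). Without DEX replicate 2 this became -0.54 and was called (adjusted p = 0.0386).

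For the other genes the steroids were not distinguished. VSG158 has no slide in common with DEX or FF, so treatment and slide cannot be fully told apart in those 2 comparisons. VSG158 against DEX called 0 of the 8 genes (1.99% of all genes). The pairs of VSG158 with FF, VSG159 with FF and VSG158 with VSG159 called 0% of all genes under limma. In these pairs only 6.3%, 6.04% and 6.17% of genes tested (1229, 1177 and 1203) were at an unadjusted limma p under 0.05. Among these were C3ar1 in VSG158 against FF (-0.41, 95% confidence interval -0.79 to -0.04) and against VSG159 (-0.39, interval -0.76 to -0.01), where the arrays did not overlap (as for 14.1% and 8.16% of genes), and C5ar1 in VSG158 against VSG159 (0.33, interval 0.07 to 0.59). The differences of C3 between steroids were at most 0.22 in size and their widest bounds reached -0.46 and 0.23, while for Cfb they were at most 0.33 with bounds of -0.68 and 0.30.

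**Figure D3:**
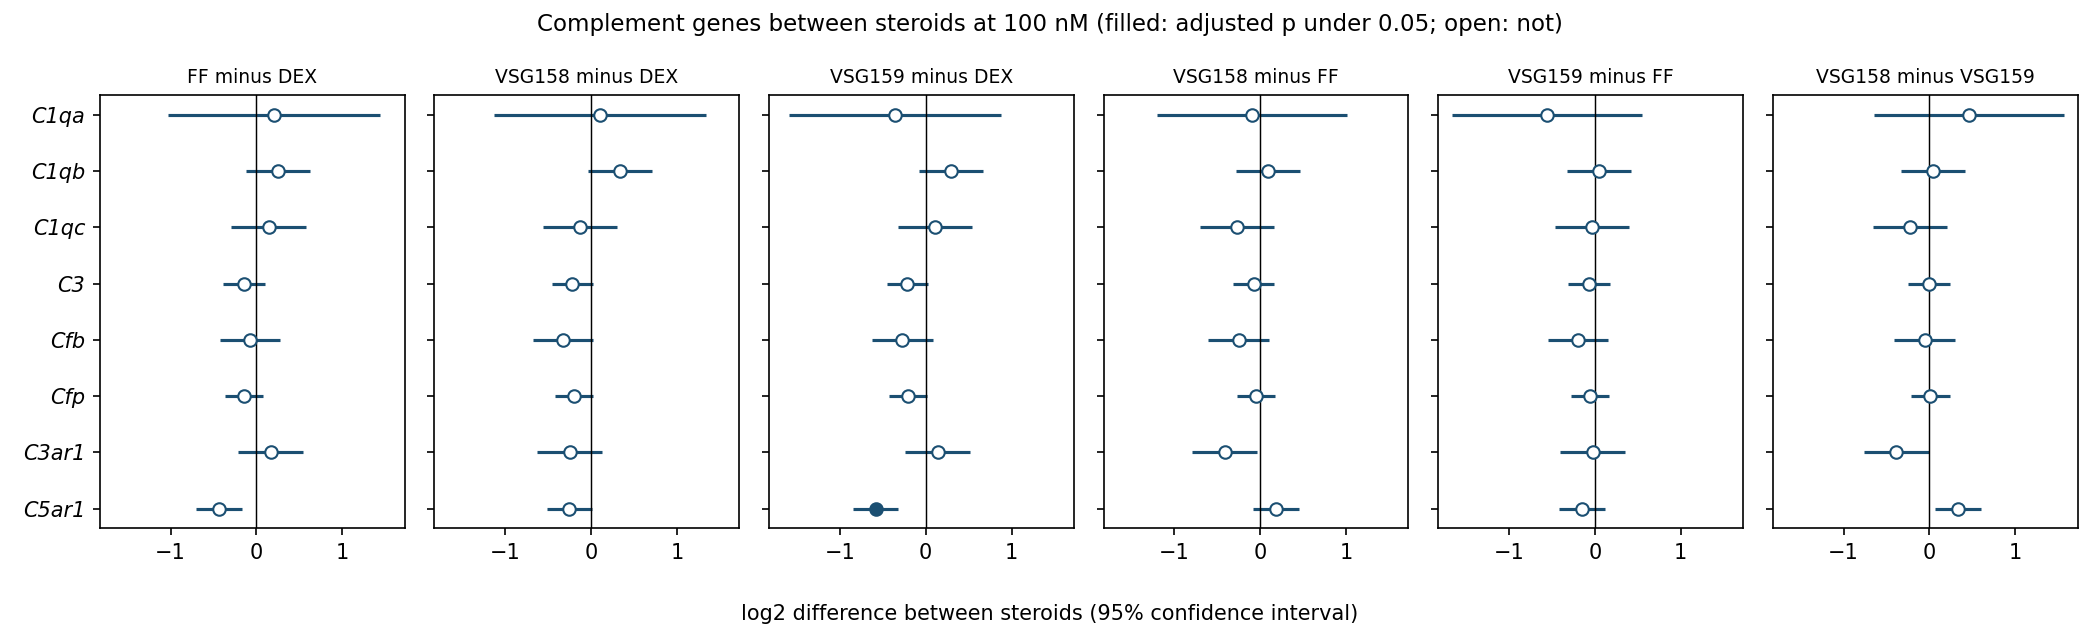
Log2 difference between steroids (horizontal axes), the first-named minus the second, for the 8 tested complement genes, with 95% confidence intervals from the limma fit. The only filled point, for adjusted p under 0.05, is C5ar1 in VSG159 minus DEX at -0.58.

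Of 49 other complement genes on the array, 30 were tested. With DEX 7 were called higher and 8 lower, with FF 8 and 5, with VSG158 8 and 6 and with VSG159 7 and 7, shares near those of all genes. Their median change was 0.01, 0.06, 0.17 and 0.17 log2 units. Of the receptors 6 of 8 were tested, with 2 higher and 3 lower with each of DEX, VSG158 and VSG159 and 3 and 3 with FF. Of 10 soluble regulators 5 were tested, with 2 higher in each comparison and 2, 1, 1 and 2 lower with DEX, FF, VSG158 and VSG159. Of 8 membrane regulators 6 were tested, with 1 higher in each and 1 lower with FF, VSG158 and VSG159. Of 15 genes of classical and lectin initiation 8 were tested, with 2, 2, 3 and 2 higher and 2, 0, 0 and 1 lower, and of 7 terminal genes 4 were tested, with 0 higher and 1 lower with DEX and VSG158. The counts for initiation and for all 30 genes include calls of Masp2, C2 and C4b. Masp2 passed the filter only through steroid groups, C2 only through vehicle and C4b only through VSG159. Their calls depend on that filter, and the counts are a description alone. Cfd, factor D, was not called.

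Among the receptors, C5ar2, the second receptor of C5a, stood at -3.42, -3.45 and -3.55 with DEX, -3.26, -3.26 and -3.54 with FF, -3.19, -3.69 and -3.70 with VSG158, and -3.50, -3.62 and -3.31 with VSG159, against -2.58, -2.59 and -2.55 with vehicle. It changed by -0.90, -0.78, -0.95 and -0.90 (SE 0.14), all called. The FF call was lost under median scaling, normexp and the deposited table, the DEX call under the deposited table, and with slide and position fitted the DEX sign turned. The C5a receptors were called in opposite directions with DEX, FF and VSG158 at the main settings, and median scaling removed the C5ar1 calls with FF and VSG158. Lrp1, a scavenger receptor that binds C1q-tagged material, fell by 1.40, 1.08, 1.48 and 1.42 (SE 0.15), and its other tested probes fell too, except that 1 of them was not called with DEX (adjusted p = 0.064). Itgam, the alpha chain of complement receptor 3, rose by 0.98, 0.95, 1.0 and 0.99 (SE 0.085) on its brightest probe, while its other probe gave 0.30, 0.46, 0.31 and 0.32 and was not called. Cd93, once described as a C1q receptor, rose by 1.03, 1.27, 1.16 and 1.07 (SE 0.22), but the DEX call was lost with slide as a fixed or random block and the FF call with the fixed block. With slide and array position fitted, the DEX calls of all the other complement genes named here were lost, and the FF calls of all but C1qbp. The VSG159 calls of Masp2, C2, Cfhr2, Cr1l, C5ar2 and Lrp1 and the VSG158 call of C4b were lost there too.

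Among the regulators, C1qbp, a mitochondrial protein that binds the heads of C1q, stood at 5.41, 5.42 and 5.50 with DEX, 5.39, 5.57 and 5.44 with FF, 5.57, 5.61 and 5.41 with VSG158, and 5.31, 5.49 and 5.49 with VSG159, against 3.90, 3.53 and 3.77 with vehicle. It rose by 1.71, 1.73, 1.79 and 1.69 (SE 0.10), with no overlap of steroid and vehicle arrays. Clu, clusterin, which binds the terminal complex, fell by 3.63 with DEX, 3.59 with FF and 3.48 with VSG158 (SE 0.34), with 2 of 3 arrays of each well above background against 3 of 3 with vehicle. With VSG159 only 1 of 3 arrays was, so the fitted size there (-4.07) is uncertain. Cr1l, the rodent membrane regulator also called Crry, rose by 0.47, 0.41, 0.33 and 0.36 (SE 0.069), and of its other tested probes 1 rose and 1 was not called. The Cr1l calls were lost under median scaling with all 4 steroids, and under normexp and the deposited table with DEX, VSG158 and VSG159. Cd55b, a decay-accelerating factor, fell by 0.61 with FF, 0.58 with VSG158 and 0.84 with VSG159 (SE 0.14) and differed by -0.34 with DEX, which was not called (adjusted p = 0.0679). Its FF call was lost under median scaling, normexp, the deposited table and slide as a fixed or random block. The probes of Cfhr2 were called in opposite directions with DEX and with VSG159, and no direction is given.

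For genes that were not well above background on any array of a group, only bounds are given. The brightest probe of Masp2, a lectin pathway protease, was well above background on 3, 3, 2 and 3 arrays with DEX, FF, VSG158 and VSG159 and on 0 with vehicle, so it passed the filter through the steroid groups, where it is high. On that probe Masp2 was at least 3.01-fold higher for DEX, 3.95-fold for FF, 2.79-fold for VSG158 and 2.82-fold for VSG159. Because of that filter no p-value is given for it. Its other tested probe differed by 1.30 log2 units with DEX and 1.17 with FF, and by 0.85 and 0.90 with VSG158 and VSG159. Those with VSG158 and VSG159 were not called (adjusted p = 0.142 and 0.118). C9, the pore-forming component, was at least 1.26-fold lower with DEX, a call lost with slide as a fixed or random block, and 1.10-fold lower with VSG158. C1rb was at least 1.16-fold lower with DEX, but that call was lost in 7 of 27 settings and its sign turned in 1 of them. C2 passed the filter only through vehicle, where 2 of 3 arrays were well above background, and C4b only through VSG159, so no change is given for either.

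**Figure D4:**
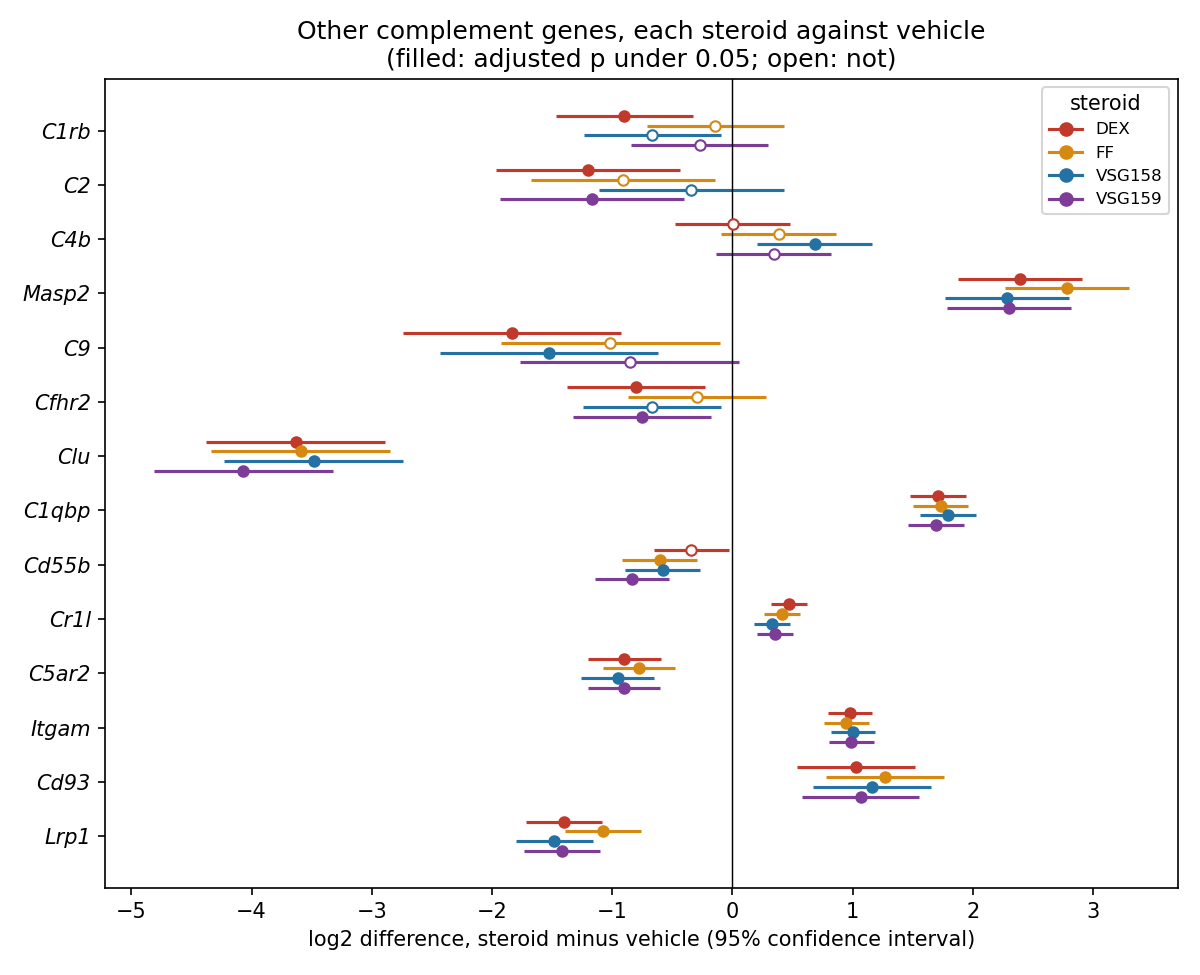
Log2 difference of each steroid minus vehicle for the other complement genes named in the text, with 95% confidence intervals from the limma fit and filled points for adjusted p under 0.05. C1qbp, Itgam and Cd93 lie to the right of 0 and Clu, Lrp1 and C5ar2 to the left with all 4 steroids, and the fitted values of Masp2, C9, C2, C1rb and C4b are not bounds.

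The genes whose signal over the 15 arrays was most like each member were found by Pearson's r, a description of arrays that share groups, slides and scaling. For C3 these were Ifi209 (r = 0.991), Rassf8 and Ier5 (0.990 each), and for Cfb Atat1 (0.992), Zfp275 (0.989) and Dhrs1 (0.988). For C3ar1 they were Igtp (0.989), Tor1aip1 (0.988) and Zfp382 (0.986), and for C5ar1 Mbip (0.969), Ino80 (0.958) and Gnpnat1 (0.955). C1qb was most like Eng (0.948), Epb41l1 (0.945) and Rsf1 (0.927), and C1qc most like Rnh1 (0.932), Crat (0.932) and Ripk1 (0.925). For Cfp the highest were Sox15 (0.871 over 14 arrays), Oog2 (0.860) and Lpxn (0.859), and for C1qa Myt1l (0.868) and Olfr885 (0.864) over 14 arrays and Drc7 (0.848) over 12. Among the members themselves C3ar1 followed Cfb at 0.942 and C3 at 0.926 and ran against C5ar1 at -0.70, while C1qa followed C1qb at 0.04 over 14 arrays and C1qc at 0.12.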

How the data were processed

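RNA of 15 RAW264.7 samples was measured on one-colour Agilent arrays. Per the file headers, the authors scanned them with Feature Extraction on a design that names build mm9, and the deposited processed signal intensity is background-subtracted and detrended within an array. The authors' value table is on a log2 scale, with distributions nearly equal between arrays, by a method not given in the sources used here. The submitters' processing notes name limma. The value table served as an alternative only, with 0 columns unused.

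From the 62976 spots, 3671 controls and all outlier-flagged spots were left out, repeated spots were averaged by probe, and the array's 75th percentile of log2 intensity was subtracted (695 to 1223 in processed signal). Probes entered the test if 2 or more arrays of some group had them well above background, and a gene is its brightest tested probe. Genes were fitted on group means of all 15 arrays with limma 3.58.1 in R 4.3.3 (package data.table, 1.17.8), two-sided, Benjamini-Hochberg adjusted within each of 10 contrasts over all genes. Other probes were tested in the same fit over 28508 tested probes. "At least N-fold" sets the brighter group's mean against, per array of the dim group, whichever is larger of its own signal and the dimmest detected one. Correlations are over arrays, without p. The fit was tested on simulated data, where it gave sizes without bias but missed a sizeable part of the true changes, short of the recovery first set as its aim. Alternatives covered scaling, background correction, the value table, filters, outlier spots, probe choice, slide, position, replicate number and leaving out each array.

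All members and probes are named, with the 3 tested genes most correlated with each member (predicted and clone names skipped) and, of other complement genes called against vehicle, up to 4 a role by size of change, of which 1 is not reported here. Members and lists were chosen with earlier results of these data known, and the printed sequences and motifs after the values were seen. Groups come from sample titles.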

Additional observations from a re-analysis of the deposited data

How the results depend on the processing

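Each member was refitted in every comparison under scaling, background, filter, outlier, probe, slide, position, pairing and leave-one-out alternatives. Against vehicle, 873 of 912 such values kept their side of the threshold and 39 lost a call, and between steroids 1348 of 1360 kept it, 11 lost and 1 gained a call. No called value changed sign, while the uncalled C1qa and Cfp differences did in some settings. Between steroids, uncalled differences of other members changed sign too, such as C3 in VSG158 against DEX (-0.26 to 0.14) and C3ar1 in FF against DEX (-0.06 to 0.34). Members called against vehicle numbered 3 with VSG159 under median scaling, and 0 with DEX, 0 with FF and 3 with VSG159 with slide and array position fitted. For VSG159 against DEX the count was 0 under median scaling, normexp, the deposited value table, no filter on dim probes, slide as a fixed or random block, slide and position, and only the 2 groups compared. Leaving out 1 array gave 6 to 6 members called for DEX, 5 to 6 for FF, 6 to 6 for VSG158 and 5 to 5 for VSG159 against vehicle, 0 to 1 for FF against DEX, 0 to 1 for VSG159 against DEX and 0 in the other pairs of steroids. Except for the fit of slide and position against vehicle, no count of all genes called is given for these settings. Further lost calls were C1qb with VSG158 when only those 2 groups were fitted (adjusted p = 0.0716) and C1qc with FF when slide was a random block (adjusted p = 0.0678). Except where stated, the cause was not tested.

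The replicate numbers do not pair the samples: deviations of same-numbered arrays correlated at -0.55 to 0.30, over 0.1 in 7 of 30 pairs, and 3 of 15 arrays were most like those of their own number. With the replicate block, members called against vehicle were 6 for DEX, 5 for FF, 6 for VSG158 and 5 for VSG159, the lost call being C5ar1 with FF (adjusted p = 0.0636), and 1 in VSG159 against DEX. The share of all genes called with that block is not given here. Signal limits Serping1, Masp2, C2, C9, C1rb and C4b, which lay near background.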
